A study of Xenopus laevis with 12 samples.

Results

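The genes described are those of the cytosolic ribosomal proteins of the frog Xenopus laevis, measured in neural crest tissue after injection of an antisense morpholino, either one directed at miR-196a, a microRNA, or a mismatch morpholino with altered bases. They were chosen by name alone, as symbols that begin with rpl, rplp, rps or rpsa in the manner of ribosomal proteins, without the ribosomal S6 kinases. This gave 136 of the 18206 genes in the stage 14 data and 136 of the 18556 genes in the stage 17 data, of which 135 were in both. The exception is rpl3l, a striated muscle paralog of rpl3 in mammals, which has its .L copy only in the stage 14 table and its .S copy only in the stage 17 table.

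The 12 samples were wild-type embryos that received 60 ng of either morpholino at the 4-cell stage, per the labels, and were raised to Nieuwkoop and Faber stage 14 or stage 17, with 3 samples in each of the 4 groups. The design text places the injection in the right dorsal blastomere and names a further control injection, which was not analysed here. All values come from the authors' deposited tables, 1 per stage, which compare both arms and hold no values per sample. Nothing in the labels says that the 3 samples of a group came from separate clutches, so the p-values measure the spread between these samples, which may be technical. Which arm served as numerator is not stated, and values above 0 are higher in the arm here called the numerator. The same arm is taken to be the numerator at both stages, which is not stated either.

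Cytosolic ribosomes translate all nuclear messages. A large subunit, which carries the peptidyl transferase centre, and a small subunit, which decodes the message, each hold a single copy of most of their proteins around the ribosomal RNA. The messages of ribosomal proteins are among the most abundant in growing cells, and most begin with a terminal oligopyrimidine tract, through which the kinase mTOR and the RNA-binding protein LARP1 control their translation. In humans, loss of a functional copy of several of these genes causes Diamond-Blackfan anaemia, in which craniofacial defects are common. Several encoded proteins bind MDM2 when ribosome assembly fails, which links them to p53.

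The frog genome is a duplicated one, in which a gene often has 2 homeologs, written .L and .S. These genes have 80 different names once the copy suffix is removed. Of these names, 44 denote proteins of the large subunit and 31 proteins of the small subunit. Another 4 denote paralogs (rpl3l, rpl7l1, rpl22l1 and rps27l). The last, rps19bp1, is a protein that binds RPS19 and is no ribosomal protein. Both copies were present for 56 names, the .L copy alone for 16 and the .S copy alone for 8. One gene, rps9, has a further row without a suffix. Every symbol matched a protein-coding gene of the RefSeq annotation of Xenopus_laevis_v10.1, which lists 3 genes under the name rps9.

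Only 1 row of a ribosomal protein gene passed the adjusted threshold at each stage, which does not show that the others were unchanged. At stage 14, 1 of 136 (0.735%) passed the adjusted threshold of 0.05 given by the authors' deposited table, against 8.68% of the 17088 genes tested, 3.06% positive and 5.62% negative. At stage 17 it was 1 of 135 (0.741%) in the authors' deposited table, against 9.96% of 16965, 4.96% positive and 5% negative. Among other genes with a mean normalised count of at least 1000, the share past the threshold was 11.5% and then 11.7%, by the authors' deposited tables. Of the ribosomal protein genes, 128 and 131 had means of at least 1000.

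The depth per library is unknown, so precision is given by the standard error (SE) of each fold change. The median SE of a ribosomal protein gene on the log2 scale was 0.30, then 0.24, for stages 14 and 17 of the authors' deposited tables, against 0.55 and 0.51 over all genes. With the smallest test score that reached the threshold, a gene with that SE had to reach 0.86 (stage 14) or 0.69 (stage 17) in absolute log2 fold change. Estimated changes under 1.82-fold and 1.61-fold thus fell short of the threshold for a ribosomal protein gene with that SE. The limit applies to the estimate, and a true change of that size could be called or missed. In bulk tissue, fewer cells of a type and less RNA per cell cannot be told apart.

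Markers of neural crest, neural plate and epidermis passed the threshold more often than genes at large in the same libraries. Of all genes, 5.62% were negative and 3.06% positive past it at stage 14, and 5% and 4.96% at stage 17. Of 21 neural crest marker rows, 18 were negative past the threshold at stage 14, and later 6, by the authors' deposited tables. Their summed level was 10543 normalised counts in the numerator arm and 49038 in the denominator arm at stage 14, and 53516 and 105581 at stage 17. Crest markers were thus detected in both arms, but sox10.S, which maintains crest progenitors, was at 1.40 normalised counts in the numerator arm at stage 14, under a floor of 3. Of 15 neural plate rows, 5 were positive past the threshold at stage 14, and later 13, by the authors' deposited tables, with summed levels of 65092 against 39774 and of 42138 against 9986. Epidermal rows past the threshold were 8 negative and 1 positive of 15 at stage 14 and 6 negative and 1 positive of 16 at stage 17, with summed levels of 31198 against 161146 and of 67032 against 189702. Endodermal rows past it were 1 negative of 7, then 2 positive and 1 negative of 7, with sums of 2287 against 4747 and 2621 against 2317. Muscle and notochord rows past it were 2 positive and 1 negative of 7, then 1 negative of 6, with sums of 545 against 153 and 229 against 253. Blood rows past it were 0 of 2 at stage 14 in the DESeq2 test, where 0 had an unadjusted p-value under 0.05, and 2 negative of 5 at stage 17, with sums of 2.43 against 30.1 and 29.6 against 153. The part of these markers in the values of ribosomal protein genes was not tested.

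**Figure D1:**
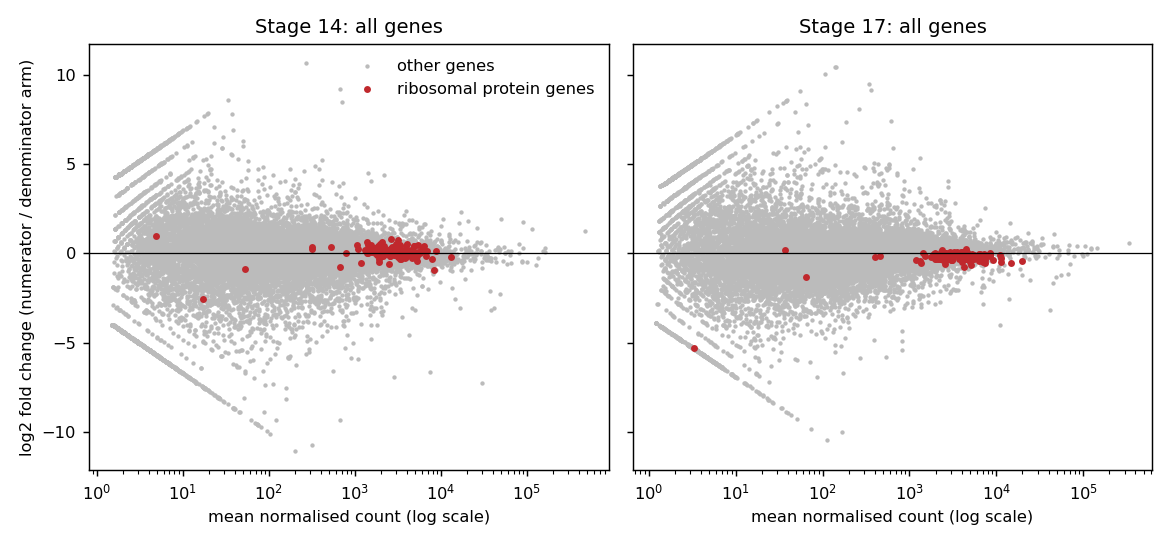
Mean normalised count (x axis, log scale) against log2 fold change (y axis) of every gene with a p-value in the authors' deposited table of each stage, with ribosomal protein genes in red. Nearly all red points lie at means above 1000 and close to 0, and the 3 rows per stage with means under 100 are paralogs.

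The log2 fold changes of ribosomal protein genes covered a narrow range, on both sides of 0 at stage 14 and mostly below 0 at stage 17. At stage 14 the interquartile range of their log2 fold changes was -0.07 to 0.27, and that over all genes -0.56 to 0.57, in the authors' deposited table. The stage 17 ranges were -0.30 to -0.05 and -0.57 to 0.54 in the authors' deposited table. Log2 fold changes of 0.5 or more in size occurred in 14 of 136 ribosomal protein genes (10.3%) at stage 14 and in 9 of 136 (6.62%) at stage 17. Over all genes those shares were 54% and 53.3%. The median of the mean normalised counts was 162 and 160 over all genes, against 2719 and 3958 for ribosomal protein genes. Spreads were not compared with those of other genes at matched counts, so the narrow range cannot be called particular to this family.

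The intervals give what the data allow. The whole 95% interval of the fold change lay within 2-fold in either direction (an absolute log2 value under 1) for 105 of 136 genes (77.2%) at stage 14 and for 125 of 136 (91.9%) at stage 17, by the SEs of the authors' deposited tables. The background was 20.4% and 23.2% of all genes, whose median SE was larger and which were not matched by count. No ribosomal protein gene had an interval wholly outside that range, while 828 and 797 of all genes did. A change smaller than 2-fold remains possible for each gene, and a larger one for the genes whose interval reaches past 2-fold.

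**Figure D2:**
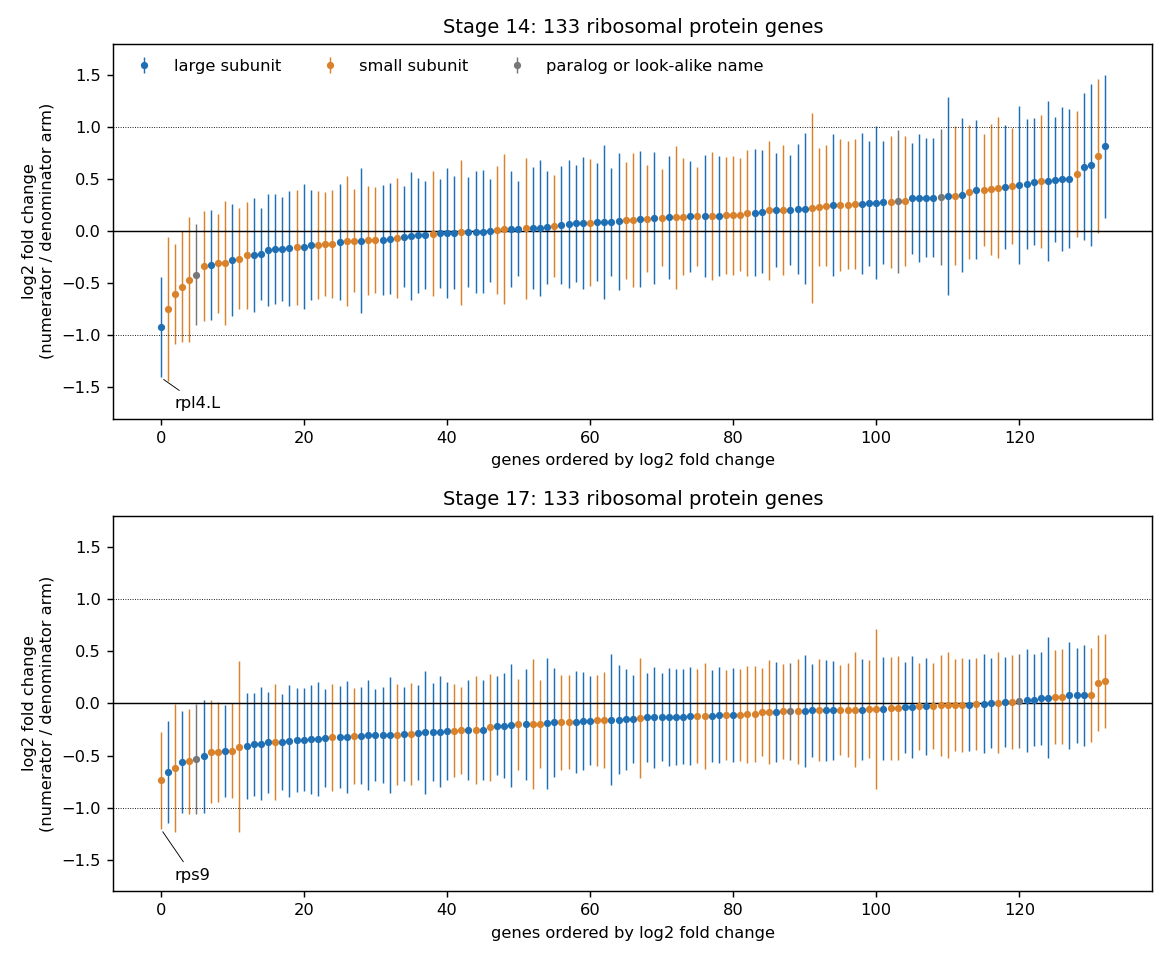
Log2 fold change (points) with its 95% interval (bars) for the 133 ribosomal protein genes with a mean normalised count of at least 100 at each stage, ordered by value on the x axis, with dotted lines at 2-fold. Only rpl4.L at stage 14 and rps9 at stage 17 passed the authors' threshold. At stage 17 most points lie below 0, with intervals that mostly cross 0.

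At stage 14 the gene past the threshold was rpl4.L, which encodes a large subunit protein that lines the peptide exit tunnel. Its level, computed from the authors' deposited table, was 5715 normalised counts in the numerator arm and 10818 in the denominator arm, or 0.528 times as high. For rpl4.L the authors' deposited table lists -0.92 (log2 fold change, SE 0.25, adjusted p = 0.00428), with a 95% interval from -1.40 to -0.44. Its homeolog rpl4.S had the same sign and a smaller value, -0.33 (SE 0.27, adjusted p = 0.587) in the authors' deposited table. At stage 17, rpl4.L was at -0.51 (SE 0.28, adjusted p = 0.280) and rpl4.S at -0.25 (SE 0.25, adjusted p = 0.633) in the authors' deposited table. Neither copy of rpl4 was thus past the threshold at the later stage, and the change of rpl4.L between the stages, 0.41 (SE 0.37), was close to its error.

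At an unadjusted p-value under 0.05, 4 of 136 genes (2.94%) differed at stage 14 in the authors' deposited table, against 18% of all genes and 10.4% for negative values alone. Besides rpl4.L these were rps10.L at -0.60 (SE 0.25), rpl17.L at 0.82 (SE 0.35) and rps9.L at -0.75 (SE 0.35), named after their values were seen, and none of them passed the adjusted threshold. Values leaned to the positive side, with 88 positive and 48 negative genes against 51.1% positive genes overall. The median was 0.11 against 0.02 for all genes in the authors' deposited table. Summed over all ribosomal protein rows, the level was 424603 normalised counts in the numerator arm and 406286 in the denominator arm, a ratio of 1.05. That sum made up 2.56% and 2.41% of the normalised counts of the arms.

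At stage 17 the row past the threshold was that of rps9 without a copy suffix. The name rps9 denotes a small subunit protein bound early in assembly. The tables do not show how reads were divided among the 3 rows named rps9, so the value of this row may not be that of a single gene. Its level, computed from the authors' deposited table, was 3219 normalised counts in the numerator arm and 5369 in the denominator arm, or 0.6 times as high. The log2 fold change in the authors' deposited table was -0.74 (SE 0.24, adjusted p = 0.0258), with a 95% interval from -1.20 to -0.27. Without that row, 0 of the other ribosomal protein genes passed the threshold of the authors' DESeq2 test at stage 17, and 7 had an unadjusted p-value under 0.05. The strongest of these was rpl12.S, named after its value was seen, whose protein lies at the base of the stalk. In the authors' deposited table rpl12.S was at -0.66 (SE 0.25, adjusted p = 0.0746), and its homeolog rpl12.L at -0.15 (SE 0.25).

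With rps9 included, 8 of 136 genes (5.88%) had an unadjusted p-value under 0.05 at stage 17, against 19.8% of all genes. All 8 were negative, and the 5.88% is thus to be set against the 10.1% of all genes that were both under 0.05 and negative. The lean was to the negative side, with 118 negative and 18 positive genes, whereas 49.3% of all genes were negative. The median was -0.15 in the authors' deposited table, against 0.01 over all genes. Centred on the 0.10 median of other genes above the 75th percentile of mean expression, it was -0.25, with 133 negative genes. At stage 14, by contrast, the same centring (a median of -0.02) gave 0.12. The sum of all rows was 535554 normalised counts in the numerator arm and 613112 in the denominator arm, a ratio of 0.874, or 3.57% against 4.27% of the normalised counts of the arms. Genes of 1 family share libraries and scaling factors, so their common lean is not made of independent observations, and no error can be given for the sums.

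The most positive value at stage 17 among genes with means over 100 was that of rps18.L at 0.22 (SE 0.23) in the authors' deposited table, within its error. At the other end stood rps9. Counts were not divided by transcript length, so a high count here marks a gene measured with many reads and not one with more transcripts. The most reads per the authors' deposited tables fell on rpl3.L, a large subunit core protein, with means of 13168 normalised counts for stage 14 and 19603 for stage 17. Per the authors' deposited tables, rpl3.L had log2 fold changes of -0.22 (SE 0.23) and -0.41 (SE 0.26). The small subunit gene rps20.L, with a mean of 8782 at stage 14, was at 0.14 (SE 0.24) and -0.11 (SE 0.22) in the authors' deposited tables.

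The response was then compared between stages by a test of the difference itself, which assumes the same numerator arm at both stages. Crest rows past the threshold were all negative and neural plate rows all positive at both stages, while endodermal and muscle rows were mixed. Of 135 ribosomal protein genes, 0 had an adjusted p-value under 0.05 for the difference, by the normal test on the SEs with Benjamini-Hochberg adjustment over 16194 genes, against a background of 1.51%, or 0.21% for genes lower at stage 17. At an unadjusted p-value under 0.05 there were 3 (2.22%), against 8.58% of all genes. These were rps9, rpl17.L and rpl22l1.L, all lower at stage 17. For the suffix-free rps9 row the log2 fold change went from 0.40 to -0.74, a difference of -1.14 (SE 0.36, adjusted p = 0.0878), while the log2 ratio over all 3 rps9 rows summed went from -0.06 to -0.65. For rpl17.L, a protein near the exit of the peptide tunnel, the difference was -0.99 (SE 0.43, adjusted p = 0.389), and for rpl22l1.L it was -0.86 (SE 0.43, adjusted p = 0.559).

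Most differences had the same sign. The difference was negative in 111 of 135 genes (82.2%), while it was negative in 43.7% of all genes. Its median was -0.24, against 0.11 over all genes. Of the 135 genes, 72 were positive at stage 14 and negative at stage 17, 45 were negative at both, 15 positive at both and 3 negative then positive. Across these genes log2 fold changes at stages 14 and 17 had a Spearman correlation of 0.17 and a Pearson correlation of 0.42. Over the 130 genes without paralogs and rps19bp1 they were 0.20 and 0.27. These correlations run across genes that share libraries, and they carry no p-value. The batch label repeats the stage, so stage and batch cannot be told apart.

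**Figure D3:**
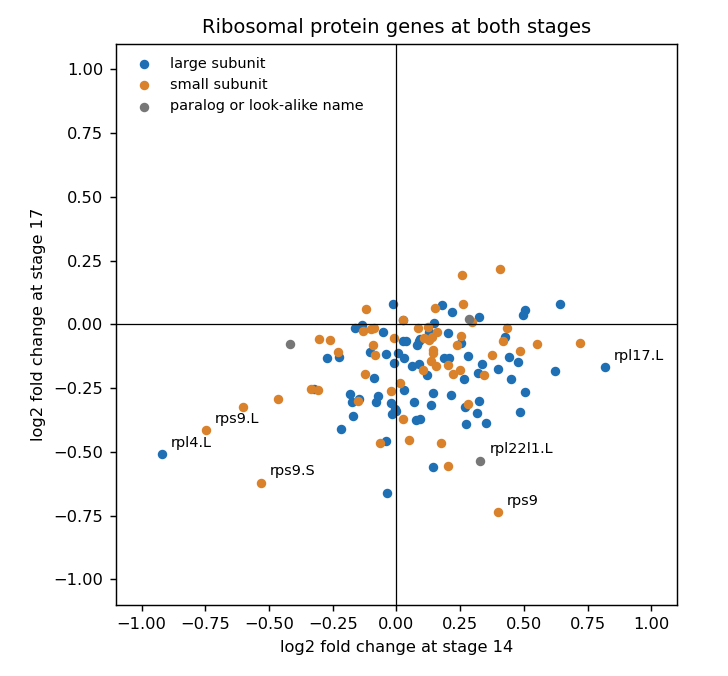
Log2 fold change at stage 14 (x axis) and at stage 17 (y axis) of the 133 ribosomal protein genes with means of at least 100 at both stages, coloured by subunit. Points gather in the lower right quadrant, and rps9 sits apart from rps9.L and rps9.S because its value is positive at stage 14.

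The subunits are given side by side. The 74 large subunit rows had a median log2 fold change of 0.09, then -0.17, by the authors' deposited tables, with rpl4.L as the gene past the threshold. For the 56 small subunit rows the medians were 0.13 and -0.11, with rps9 as the gene past it. Values ranged from -0.92 to 0.82 and from -0.66 to 0.08 in the large subunit, and from -0.75 to 0.72 and from -0.74 to 0.22 in the small subunit. Negative genes at stage 17 made up 87.8% of the large and 87.5% of the small subunit rows. The shares of subunits were not tested against each other.

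The acidic stalk recruits translation factors to the ribosome, through rplp0 as its base and rplp1 and rplp2 as its arms. Its 5 rows were all positive at stage 14 (4 when centred on the median of all genes, where rplp1.L was at -0.01) and all but 1 negative at stage 17 (all 5 when centred on highly expressed other genes), with medians of 0.32 and -0.13 in the authors' deposited tables, and none passed the threshold or an unadjusted p-value of 0.05. For rplp0.L, the authors' deposited tables gave 0.08 (SE 0.29) and -0.37 (SE 0.25), and for rplp0.S 0.32 (SE 0.29) and -0.30 (SE 0.28). Values of rplp2.L were 0.50 (SE 0.30) and 0.03 (SE 0.23), those of rplp2.S 0.44 (SE 0.39) and -0.13 (SE 0.24), and those of rplp1.L 0.01 (SE 0.25) and -0.11 (SE 0.24), in the authors' deposited tables. Each lies within 2 SE of 0. Past the threshold were 8.68% and 9.96% of all genes, and 5 rows are too few to set against these shares.

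From a chosen list of genes tied to Diamond-Blackfan anaemia in humans, 30 rows under 17 names were present. The listed rps28 had no row of that name, and rps28p9.L and rps28p9.S were not counted for it. None of the 30 rows passed the threshold of the authors' test at either stage, against 8.68% and 9.96% of all genes. Before adjustment 1 (3.33%) and then 0 were under 0.05 in that test, against 18% and 19.8% of all genes. Over all ribosomal protein rows these unadjusted shares were 2.94% and 5.88%. Their medians were 0.18 and -0.08 in the authors' deposited tables. At stage 17 all 30 rows had a 95% interval within 2-fold, against 91.9% of all ribosomal protein rows and 23.2% of all genes. At stage 14, 22 of them did (73.3%), against 77.2% and 20.4%. The most often mutated of these genes is rps19, a small subunit protein needed to mature the small ribosomal RNA. Its .S copy had a mean of 4576 and 5594 normalised counts and log2 fold changes of -0.09 (SE 0.26) and -0.12 (SE 0.23) in the authors' deposited tables. The .L copy, at means of 320 and 398, had 0.22 (SE 0.47) and -0.20 (SE 0.32).

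The proteins RPL5 and RPL11 form the particle with 5S ribosomal RNA that binds MDM2. By the authors' deposited tables, rpl5.L had log2 fold changes of 0.20 (SE 0.28) and -0.03 (SE 0.22), and rpl5.S of -0.27 (SE 0.27) and -0.13 (SE 0.22). For rpl11.L the authors' deposited tables gave 0.15 (SE 0.29) and 0.01 (SE 0.22), and for rpl11.S 0.21 (SE 0.27) and -0.13 (SE 0.22). No value of this pair of genes exceeded its SE at either stage.

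Some ribosomal proteins are known for selective effects on translation. Loss of Rpl38 in the mouse lowers translation of a subset of Hox messages and alters the axial skeleton. Per the authors' deposited tables, rpl38.L had log2 fold changes of 0.25 (SE 0.35) at stage 14 and -0.07 (SE 0.28) at stage 17, and rpl38.S of 0.00 (SE 0.30) and -0.34 (SE 0.28). The product of rpl10a is found on only part of the ribosomes in mouse stem cells. For rpl10a.S, the authors' deposited tables gave 0.14 (SE 0.30, adjusted p = 0.891) and -0.56 (SE 0.25, adjusted p = 0.157), and the later minus the earlier value was -0.70 (SE 0.39, adjusted p = 0.658). With rps25, which viral internal entry sites need in yeast and mammals, the values were 0.28 (SE 0.32) and -0.31 (SE 0.24) for the .L and 0.14 (SE 0.29) and -0.05 (SE 0.25) for the .S copy in the authors' deposited tables.

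At the mRNA entry channel lies rps3, which also acts in DNA repair in mammals. Its log2 fold changes in the authors' deposited tables were -0.31 (SE 0.30) and -0.06 (SE 0.28) for rps3.L and -0.46 (SE 0.30) and -0.29 (SE 0.25) for rps3.S. The small subunit gene rpsa also encodes the laminin receptor. Per the authors' deposited tables, rpsa.L was at 0.17 (SE 0.31) and -0.46 (SE 0.25), and rpsa.S at -0.31 (SE 0.24) and -0.26 (SE 0.21). The core gene rps4x had values from -0.09 (rps4x.S at stage 14) to 0.12 (rps4x.L at stage 14) in the authors' deposited tables. All of these lie within 2 SE of 0.

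Paralogs included the rows with the largest SEs. The p53 target gene rps27l of mammals had means of 52.7 (.L) and 17.0 (.S) normalised counts at stage 14 and of 36.8 and 64.7 at stage 17, per the authors' deposited tables. At stage 14, rps27l.S was at 5 normalised counts in the numerator and 29.0 in the denominator arm, and the authors' deposited table lists -2.53 (SE 1.68, adjusted p = 0.440) for this copy. For stage 17 its levels were 37.4 and 92.0, with -1.3 (SE 0.61, adjusted p = 0.189). The values of rps27l.L were -0.88 (SE 0.79) and 0.20 (SE 0.82). Neither copy of rps27l passed the threshold at either stage. Its canonical relative rps27 had 0.13 (SE 0.24) and -0.06 (SE 0.23) in the .L copy and -0.33 (SE 0.27) and -0.25 (SE 0.27) in the .S copy, in the authors' deposited tables.

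The pair rpl22 and rpl22l1 encode alternative forms of the same subunit protein, which regulate each other in mammals. By the authors' deposited tables, rpl22.L had log2 fold changes of 0.32 (SE 0.31) and -0.19 (SE 0.32), and rpl22.S of 0.21 (SE 0.32) and -0.28 (SE 0.30). The authors' deposited tables gave rpl22l1.L 0.33 (SE 0.34) and -0.53 (SE 0.27, adjusted p = 0.231). Signs were therefore the same in both genes of the pair at each stage. The product of rpl7l1 is an assembly factor in mammals and replaces RPL7 in early particles, and rpl7l1.L had -0.42 (SE 0.25, adjusted p = 0.361) and -0.08 (SE 0.24) in the authors' deposited tables. For rpl3l, with means of 4.90 and 3.30 normalised counts, no fold is read. The value of rps19bp1.L was 0.29 (SE 0.35) and 0.02 (SE 0.23).

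Homeologs were set side by side as an internal comparison. For 55 names the authors' deposited tables hold both copies at each stage, and reads of near-identical copies may have been divided unevenly. Their log2 fold changes had the same sign in 37 pairs at stage 14, of which 25 were positive, and in 44 pairs at stage 17, of which 42 were negative. The gap between copies had a median size of 0.18 at stage 14 and 0.11 at stage 17, against 0.59 and 0.53 over 5711 and 5925 homeolog pairs of all genes. Those pairs were not matched to the ribosomal protein genes by count. The 95% intervals of the copies overlapped in all 55 pairs at both stages. At stage 14 the .L copy had the higher value in 38 of 55 pairs, with a median gap of 0.13, and at stage 17 in 30 of 55, with a median gap of 0.02. The gap itself was not tested, because both copies were measured in the same libraries.

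Gaps over 0.5 were found in 8 pairs at stage 14 and 2 at stage 17. The widest outside rps27l was that of rpl17 at stage 14, with 0.82 (SE 0.35) for the .L and -0.07 (SE 0.27) for the .S copy in the authors' deposited table. In rps10, a small subunit gene, the order was the reverse, with -0.60 (SE 0.25) for the .L and 0.25 (SE 0.33) for the .S copy in the authors' deposited table. Both gaps were smaller at stage 17, where rpl17 had -0.17 and -0.28 and rps10 had -0.33 and -0.05. These pairs were named for their wide gaps at stage 14, so smaller gaps at the other stage carry no weight. With both copies summed, the log2 ratio of the arms was 0.33 for rpl17 and -0.16 for rps10 at stage 14, and -0.74 for rpl4.

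**Figure D4:**
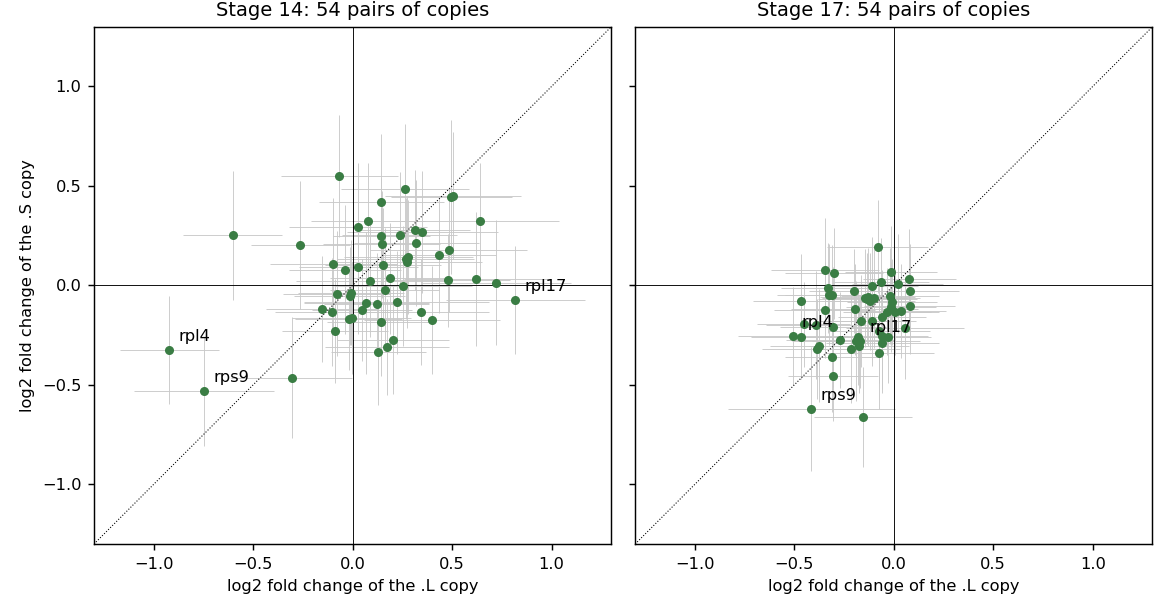
Log2 fold change of the .L copy (x axis) and the .S copy (y axis) with SE bars for 54 names at each stage, without rps27l, and a dotted line where both are equal. Pairs scatter around 0 at stage 14 and lie mostly in the lower left quadrant at stage 17.

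The 3 rows of rps9 differed in the sign of their values at stage 14. Within the authors' deposited table for stage 14, rps9 was at 0.40 (SE 0.27, adjusted p = 0.463), rps9.L at -0.75 (SE 0.35, adjusted p = 0.205) and rps9.S at -0.53 (SE 0.27, adjusted p = 0.268). At stage 17 all 3 were negative in the authors' deposited table, rps9 at -0.74, rps9.L at -0.42 (SE 0.42) and rps9.S at -0.62 (SE 0.31). Summed over the 3 rows, the level at stage 14 was 3974 normalised counts in the numerator and 4148 in the denominator arm, a log2 ratio of -0.06. At stage 17 the sums were 6373 and 9987, a log2 ratio of -0.65. The stage 14 values of single rows thus cancelled in the sum, and those of stage 17 did not.

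Other genes with a terminal oligopyrimidine tract, mostly translation factors, had a median of the opposite sign at stage 14. Their 35 rows had medians of -0.15 and -0.03 in the authors' deposited tables, with 24 and 20 negative rows. One row was positive past the threshold at each stage (2.86%, against 3.06% and 4.96% of all genes). At stage 14 it was the histone chaperone nap1l1.S, at 0.77 (SE 0.26, adjusted p = 0.0402) in the authors' deposited table. At stage 17 it was the intermediate filament gene vim.L, at 1.34 (SE 0.33, adjusted p = 0.00162) in the authors' deposited table. The lists were not tested against each other.

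Next come the genes that build ribosomes. Of 84 rows of ribosome biogenesis factors, 2 were negative past the authors' threshold at each stage (2.38%), against 5.62% and 5% of all genes. Their medians were -0.19 and -0.15. At stage 14 these were wdr43.L, of the early small subunit processome, at -1.11 (SE 0.29, adjusted p = 0.00299), and mak16.S, of large subunit assembly, at -1.19 (SE 0.36, adjusted p = 0.0167), in the authors' deposited table. Those of stage 17 were ltv1.L, a small subunit export factor, at -0.74 (SE 0.24, adjusted p = 0.0266), and nop14.L, of the processome, at -0.73 (SE 0.25, adjusted p = 0.0358). Negative rows numbered 57 and 64 of 84. Among 21 rows for RNA polymerase I and its factors, 1 was negative past the threshold at stage 14 (4.76%, against the same 5.62%). This was polr1f.L, at -0.94 (SE 0.32, adjusted p = 0.0367) in the authors' deposited table. At stage 17, 0 of 21 passed the threshold of the authors' DESeq2 test, against 9.96% of all genes. An unadjusted p-value under 0.05 in that test was found for 1 (4.76%), against 19.8% of all genes.

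Regulators of ribosomal protein synthesis followed. The transcription factor Myc activates ribosomal protein genes in many cells. In the authors' deposited table for stage 14, myc.L was at -2.16 on the log2 scale (SE 0.35, adjusted p = 9.56e-08). Its level was 1258 normalised counts in the numerator and 5640 in the denominator arm. For myc.S the authors' deposited table holds -1.68 (SE 0.31, adjusted p = 3.84e-06). At stage 17 the values were -0.08 (SE 0.37) and -0.04 (SE 0.30) in the authors' deposited table. The part of myc in the values of ribosomal protein genes was not tested.

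Of 28 regulator rows at stage 14, 3 were negative past the threshold (10.7%, against 5.62% of all genes). Besides both copies of myc this was larp4.S, which binds and stabilises messages, at -1.74 (SE 0.30, adjusted p = 5.80e-07) in the authors' deposited table. At stage 17, 1 of 26 was negative past the threshold (3.85%, against 5% of all genes), mycn.S, at -2.03 (SE 0.38, adjusted p = 6.48e-06). Genes of the response to ribosomal and other stress that p53 controls had 4 positive rows past the threshold of 19 at stage 14 (21.1%, against 3.06% of all genes) and 4 of 18 at stage 17 (22.2%, against 4.96%). At stage 14 these were sesn1.S at 3.14 (SE 0.58), sesn2.S at 1.74 (SE 0.36), ccng1.L at 1.5 (SE 0.36) and sesn2.L at 1.53 (SE 0.43) in the authors' deposited table. Later the 4 rows were sesn2.L at 2.15 (SE 0.34), gadd45a.L at 2.56 (SE 0.46), gadd45a.S at 1.41 (SE 0.38) and sesn2.S at 1.26 (SE 0.39) in the authors' deposited table. Sestrins restrain mTOR, cyclin G1 feeds back on MDM2 and Gadd45 proteins act in growth arrest.

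Mitochondrial ribosomal proteins, which serve the separate ribosome of the mitochondrion, were measured in 94 rows. At stage 14, 3 rose and 1 fell in the authors' deposited table, or 4.26% against 8.68% of all genes. The 3 positive rows were mrps17.L at 1.62 (SE 0.38), mrpl3.S at 1.40 (SE 0.37) and mrpl28.L at 1.73 (SE 0.58). The negative row was mrps15.L, at -1.40 (SE 0.45). At stage 17, 0 of 94 passed the threshold of the authors' DESeq2 test, against 9.96% of all genes. An unadjusted p-value under 0.05 in that test was found for 6 (6.38%), against 19.8% of all genes. Their medians were 0.17 and -0.06 in the authors' deposited tables, with 49 negative rows at stage 17. Their median SEs were 0.47 and 0.44.

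**Figure D5:**
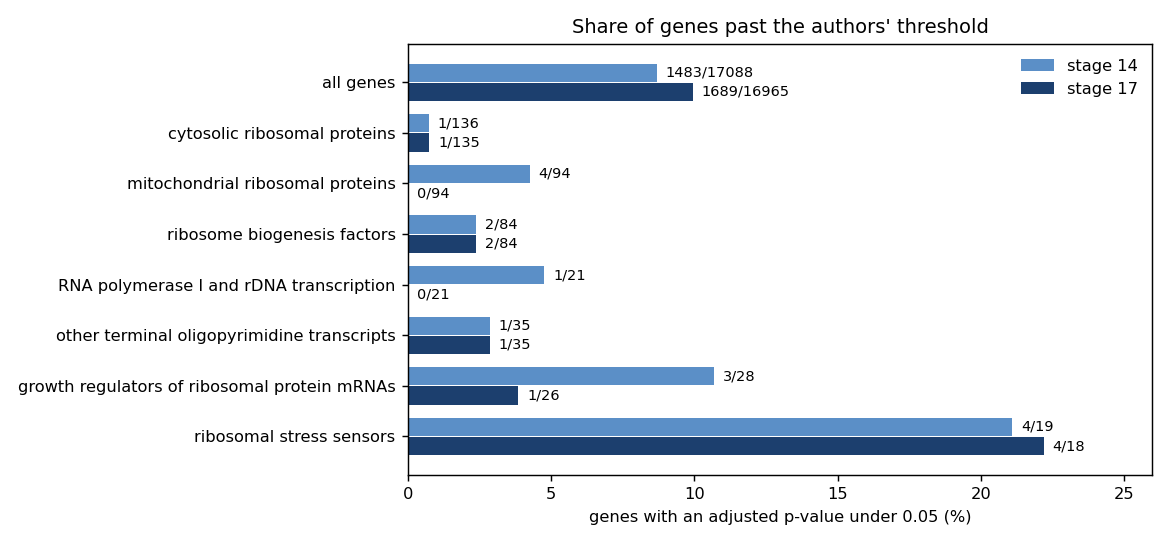
Share of genes with an adjusted p-value under 0.05 (x axis, percent, from 0) in all genes and in 7 gene lists (y axis) at each stage, with the counts behind each bar. Bars of the cytosolic ribosomal proteins stand at 0.735% and 0.741%, against 8.68% and 9.96% for all genes.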

How the data were processed

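RNA sequencing of the 12 samples was deposited as 2 comparison tables, 1 per stage. The authors used STAR 2.7.3a and DESeq2, per the submitters' processing notes. Build, annotation, filters and numerator are not given in the sources used here. Libraries were unstranded, per the labels, so overlapping and antisense genes are less certain. Per the file headers, the authors deposited a mean normalised count (a signal scaled between libraries), a log2 fold change with its SE on the log2 scale, their ratio (a score), and each p-value before and after adjustment.

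Calls used the authors' adjusted p-values under 0.05. At stage 17 the adjusted and unadjusted p-values of the top gene imply an adjustment over 22197 genes, a number stated nowhere. The authors deposited 16965 genes with an adjusted p-value for that stage, and all were used here. The 9.96% past the threshold is a share of those alone. Arm levels assume arms of equal size, and levels of at most 3 normalised counts count as the floor. Differences between stages were scaled by the combined SE of both stages (square root of the sum of squares). They were given a two-sided normal p-value and Benjamini-Hochberg adjustment (Python 3.11.15, scipy 1.17.1). That takes the samples of the stages as independent, which the labels do not state, and the SEs as exact. A run on simulated data drew independent noise from these same SEs. It could check the calculation but not those assumptions. Levels per codon, planned for comparing genes, were not computed, since protein lengths were not used here. Samples were grouped by title.

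Named genes are those past the threshold, the 3 with the lowest p-values for the difference, the 3 highest and 3 lowest means per stage, a list of well-studied members, and up to 4 called genes per list and stage. Members, lists and rules were chosen with earlier results of these data known. One further gene list is not reported here. The alternatives were other thresholds, adjustments, count filters, centrings and member sets.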

Additional observations from a re-analysis of the deposited data

Results flagged for a closer look

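The response of both copies of myc differed between stages by the normal test on the SEs of the authors' deposited tables. The difference of the log2 fold changes, stage 17 minus stage 14, was 2.09 (SE 0.51, adjusted p = 0.00735) for myc.L and 1.64 (SE 0.43, adjusted p = 0.0161) for myc.S. A positive difference was not particular to myc. Among 21 neural crest marker rows it was positive in 20, with a median of 1.91. By the same test 4 of the 21 passed the threshold (19%, against 1.51% of all genes), all higher at stage 17. Whether myc moved with the crest markers was not tested. With 3 samples per group and no values per sample, no sample could be examined for standing apart.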

How the results depend on the processing

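At stage 14 the call of rpl4.L alone held under all 8 alternatives, though those that only leave out other members could not alter it. At stage 17 the count of 1 became 0 at an adjusted p-value under 0.01 and 0 without the suffix-free rps9 row (chosen after seeing the data), with 8 and 7 genes at an unadjusted p-value under 0.05 in the authors' DESeq2 test. It became 2, rps9 and rpl12.S, at an adjusted p-value under 0.1, which at least the 9.96% of all genes called at 0.05 also pass. It became the same 2 when centred on other genes above the 75th percentile of expression, where 10.4% of all genes were called. The other 4 alternatives gave 1. For the difference between stages the count of 0 became 1 at an adjusted p-value under 0.1 and 1 with that centring. With the centring, 11 ribosomal protein genes had an unadjusted p-value under 0.05. The count was 0 under the other 5. Shares of all genes were not computed for these alternatives of the difference, so the counts cannot be set against a background. The medians, and the mean taken in their place, lay between 0.0755 (the mean) and 0.12 at stage 14. At stage 17 they lay between -0.25 and -0.15. No error of these medians is known, since the SE of a single gene does not give it. Centring on highly expressed other genes lowered the number of positive genes at stage 17 from 18 to 3. Of the values of single named genes, 9 lost their call, all at an adjusted p-value under 0.01, rps9 at stage 17 among them. No value past the threshold changed sign, but none could, since only the centrings alter fold changes and the largest shift was 0.10. Values near 0 that had not passed the threshold changed sign under centring. On the median of all genes these were rplp1.L at stage 14 (-0.01) and rpl11.L at stage 17 (-0.01). On highly expressed genes they were rpl38.S at stage 14 (0.01) and rpl11.L (-0.10), rplp2.L (-0.07) and rps19bp1.L (-0.08) at stage 17.

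Leaving out replicates was not run, since the tables hold no values per sample. No paired analysis was possible because the groups share no replicate numbers. The depth per library is unknown.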
